A study of Mus musculus with 12 samples.

Results

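Adrenergic receptors are the cell-surface proteins through which noradrenaline and adrenaline act, and 7 of their genes, Adra1a, Adra1b, Adra1d, Adra2a, Adra2b, Adra2c and Adrb1, were followed here among the 24421 genes of the count table. Adra1b was chosen by its measured fall in 5xFAD against WT hippocampus, so its values in that comparison are a description; the others were chosen for belonging to the family. The study sequenced hippocampal RNA of 2-month-old mice with QuantSeq, which reads the 3′ end of polyadenylated transcripts, in 3 libraries for each of 4 genotypes. The genotypes were wild type (WT); 5xFAD, a transgenic model of amyloid deposition whose transgenes are driven by the neuronal Thy1 promoter; p75NTRko, labelled as lacking the p75 neurotrophin receptor encoded by Ngfr; and the cross, 5xFAD/p75NTRko. All animals, WT included, had been injected with BrdU, which marks dividing cells, and all libraries carried the same batch label. The labels do not give the p75NTR allele, and they call the libraries of a genotype biological replicates without naming the animals.

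Noradrenaline reaches the hippocampus mainly along axons of the locus coeruleus. Alpha-1 receptors couple through Gq to phospholipase C, alpha-2 receptors through Gi and Go to lower cyclic AMP and to potassium channels, and beta receptors through Gs to adenylyl cyclase and cyclic AMP. G protein-coupled receptor kinases and arrestins then switch the receptors off, and RGS proteins shorten the G protein signal.

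Libraries held 4316739 to 6683613 counts assigned to genes, so that 3 counts correspond to 0.445 to 0.689 CPM, the counts scaled to the same library total. The Wilson intervals given below for shares of counts cover counting error only. Ngfr ran against its label, at 5.94 to 7.77 CPM in the libraries labelled p75NTRko and 6.32 to 10.5 CPM in those labelled 5xFAD/p75NTRko, against 0.166 to 1.94 CPM in WT and 0.750 to 1.70 CPM in 5xFAD. Whether the labels are exchanged or the 3′ tag lies outside the deleted part was not tested, so these counts do not check the deletion. Genotype names below are those of the labels, and every comparison by receptor label depends on them. Thy1, whose promoter drives the transgene, was at 1594 to 4014 CPM in the transgene carriers and at 687 to 938 CPM in the other libraries. Xist, which is expressed from the inactive X chromosome, was at 359 to 439 CPM in all WT and 5xFAD/p75NTRko libraries and at 1.53 to 3.57 CPM in all 5xFAD libraries, and p75NTRko held 1 library of the high class and 2 of the low class. Sex class and genotype therefore cannot be told apart in 5xFAD against WT, nor in 5xFAD/p75NTRko against 5xFAD. Comparisons of p75NTRko with WT or with the cross are uneven in Xist class. The interaction sets WT and the cross, all of the high class, against 5xFAD and p75NTRko, mostly of the low class. In bulk tissue, fewer cells of a type and less RNA per cell cannot be told apart either.

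The sequences just before the start sites of Adra1b and Adrb1 are shown because, over all 12 libraries, Adrb1 had the highest correlation with Adra1b of the members tested; around the genotype means Adra2a had a higher one. Adra1b lies on chromosome 11 at chr11:43774606-43901210 on the minus strand (GRCm38, GENCODE M21), with 4 annotated transcripts. RefSeq gives it 2 start sites, the first at the outer end of the gene and the second inside it, in an intron of the longer transcripts. Adrb1 lies at chr19:56722199-56733113 on the plus strand. Each sequence is the 250 bases before the start, 5′ to 3′ on the gene's strand, from the RefSeq promoter table (GRCm38.p6). Capitals mark matches, on either strand, to CCAAT, to the GC box GGGCGG and to TGACG, the half-site of the cyclic AMP response element. The Adra1b windows are chr11:43901238-43901487 (start 1) and chr11:43836490-43836739 (start 2), and the Adrb1 window is chr19:56721867-56722116.
Adra1b start 1: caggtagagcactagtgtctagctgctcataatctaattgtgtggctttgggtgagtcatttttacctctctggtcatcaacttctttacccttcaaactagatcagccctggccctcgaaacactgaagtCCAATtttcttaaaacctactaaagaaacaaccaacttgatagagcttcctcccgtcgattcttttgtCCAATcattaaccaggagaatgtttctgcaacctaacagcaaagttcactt
Adra1b start 2: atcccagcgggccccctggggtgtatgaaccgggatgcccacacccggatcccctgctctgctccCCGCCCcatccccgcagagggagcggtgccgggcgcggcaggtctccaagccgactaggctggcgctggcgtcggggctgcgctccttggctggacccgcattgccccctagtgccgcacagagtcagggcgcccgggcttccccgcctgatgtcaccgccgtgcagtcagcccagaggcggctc
Adrb1: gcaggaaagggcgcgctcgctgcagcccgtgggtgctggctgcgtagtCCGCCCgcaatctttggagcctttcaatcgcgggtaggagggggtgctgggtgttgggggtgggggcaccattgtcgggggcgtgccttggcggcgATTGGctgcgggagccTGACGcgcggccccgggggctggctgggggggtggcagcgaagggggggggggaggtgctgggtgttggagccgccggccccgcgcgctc
The outer Adra1b window was 41.6% G and C with 3 CpG dinucleotides, whereas the inner window was 72.8% with 22, and the Adrb1 window was 74% with 24. The outer window held 2 CCAAT matches, and the inner window held 1 GC box. Adrb1 held 1 GC box, 1 CCAAT match and 1 TGACG. Of all 32851 RefSeq mouse promoters in windows of this length, 33.8% held CCAAT, 32.7% the GC box and 17.8% TGACG. The TATA box TATAAA (12.4% of promoters), the E-box CACGTG (6.02%) and the full element TGACGTCA (1.55%), which contains TGACG, had no match in these 3 windows. The counts are sums over all transcripts of a gene, so reads from the Adra1b start sites were not separated. The table held a promoter for 5 of the 7 members; those of Adra2a, Adra2b and Adra2c are not shown, and Adra1a and Adra1d were not in it.

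Among the alpha-1 receptors, Adra1b varied most between genotypes. WT replicates 1, 2 and 3 held 74.0, 60.8 and 35.8 CPM of Adra1b (496, 375 and 216 counts). The 5xFAD replicates held 14.4, 19.5 and 13.2 CPM (85, 104 and 63 counts). The p75NTRko replicates held 22.0, 17.4 and 16.9 CPM (119, 76 and 114 counts). In 5xFAD/p75NTRko the values were 39.1, 19.3 and 44.4 CPM (235, 99 and 271 counts), so that replicate 2 lay within the range of 5xFAD and the others above every 5xFAD and p75NTRko library. In order of their means, the genotypes were WT (56.8 ± 19.4 CPM, SD, n = 3), 5xFAD/p75NTRko (34.2 ± 13.2), p75NTRko (18.8 ± 2.81) and 5xFAD (15.7 ± 3.33). Neighbours in this order overlapped in their libraries, while WT overlapped neither p75NTRko nor 5xFAD.

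**Figure D1:**
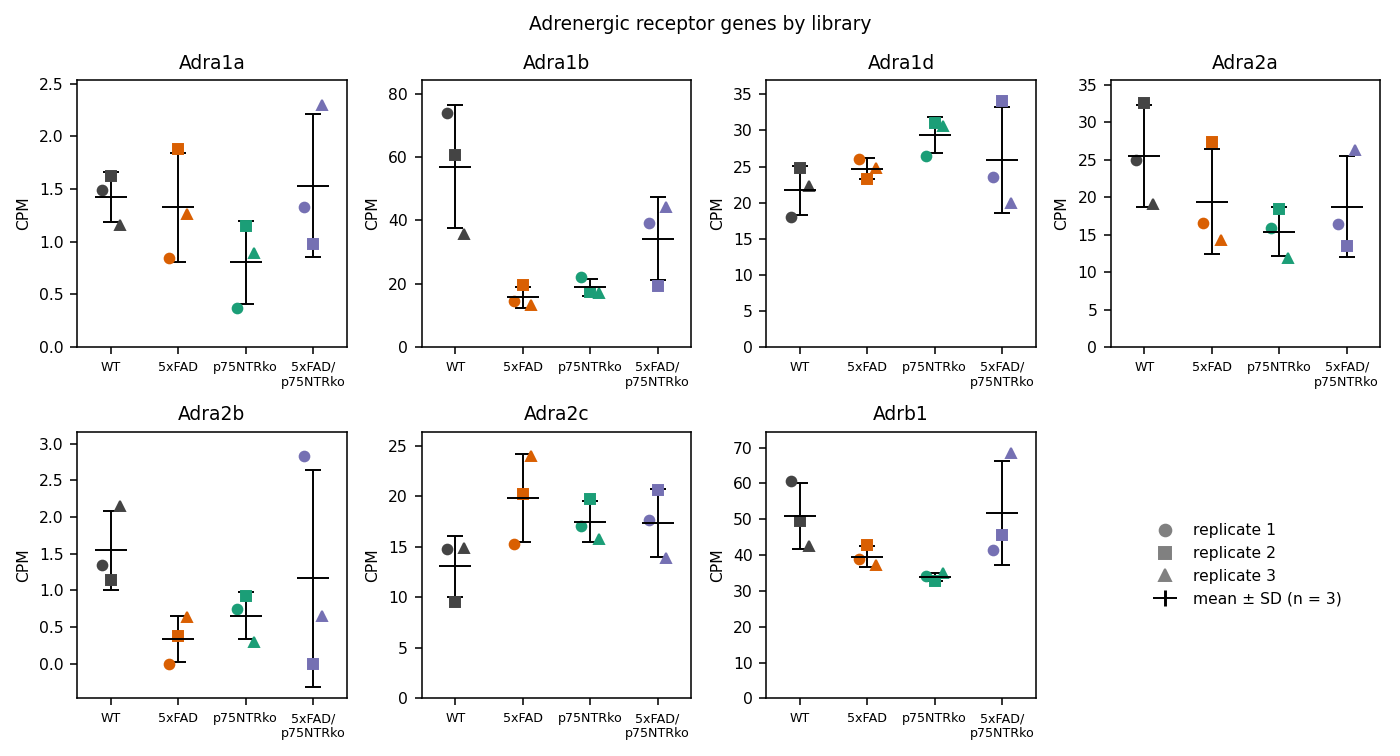
Scaled counts (CPM, linear axes, a different range for each gene) of the 7 adrenergic receptor genes in the 12 libraries, by genotype; symbols are replicates, bars the mean ± SD (n = 3). Adra1b is highest in WT (35.8 to 74.0 CPM) and lowest in 5xFAD (13.2 to 19.5 CPM), and Adra1a and Adra2b stay below 3 CPM.

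Adra1d, the alpha-1 subtype that was also well counted, did not follow Adra1b. It was at 18.1, 24.8 and 22.4 CPM in WT, 26.1, 23.2 and 24.8 CPM in 5xFAD. The p75NTRko libraries were at 26.5, 31.0 and 30.6 CPM, and those of the cross at 23.6, 34.1 and 19.97 CPM. All 3 p75NTRko libraries lay above all WT libraries, and the other genotypes overlapped WT. Its locus, chr2:131545850-131562283, overlaps 147 exonic bases of the antisense gene Gm14285, and no source used here gives the strand setting of the counting. Adra1a (chr14:66635251-66771168) was near the limit of measurement, with 7 to 10 counts per library for WT, 5 to 10 for 5xFAD, 2 to 6 for p75NTRko and 5 to 14 for the cross. It did not pass the filter on low counts and was not tested.

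Adra1b therefore made up a different share of the alpha-1 tags in the libraries. It gave 79.1%, 69.7% and 60.3% of the summed Adra1a, Adra1b and Adra1d counts in WT, with 95% Wilson intervals of 75.8% to 82.1%, 65.7% to 73.4% and 55.2% to 65.3%. In 5xFAD the share was 34.8%, 43.7% and 33.7%, while for p75NTRko it was 45.1%, 35.2% and 35.0%. In 5xFAD/p75NTRko replicates 1 and 3, at 61.0% and 66.6%, lay within the WT range, and replicate 2, at 35.5%, lay within the 5xFAD range. Tags of different genes may be caught with different efficiency, so the share compares libraries and does not rank the genes. The 7 receptors summed to 171 ± 29.8 CPM in WT (SD, n = 3 here and in the following values), 121 ± 12.6 for 5xFAD, 116 ± 5.13 for p75NTRko and 151 ± 22.3 for the cross. Without Adra1b these sums were 114 ± 10.6, 105 ± 9.505, 97.6 ± 5.53 and 117 ± 14.3 CPM.

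**Figure D2:**
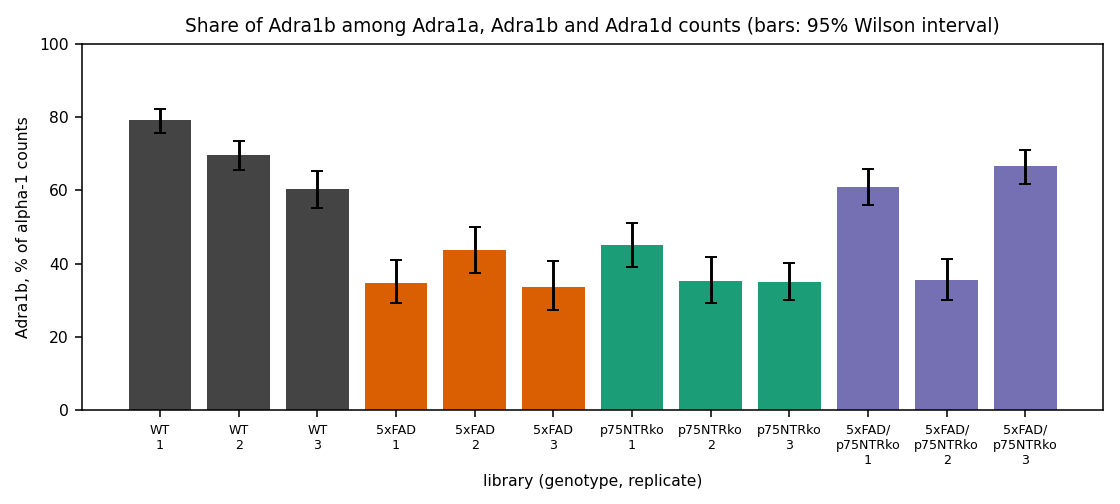
Percent of the summed alpha-1 receptor counts (Adra1a, Adra1b and Adra1d) that came from Adra1b, for each library; bars start at 0 and error bars are 95% Wilson intervals, which cover counting error only. WT lies between 60.3% and 79.1%, 5xFAD and p75NTRko between 33.7% and 45.1%, and the 5xFAD/p75NTRko libraries on either side.

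The alpha-2 receptors include the presynaptic autoreceptors that limit noradrenaline release. Adra2a (chr19:54044151-54048982) was at 24.9, 32.6 and 19.05 CPM in WT and at 16.6, 27.4 and 14.3 CPM in 5xFAD. It was at 15.9, 18.4 and 11.9 CPM in p75NTRko and at 16.5, 13.4 and 26.4 CPM in 5xFAD/p75NTRko. The p75NTRko libraries lay below every WT library, and the other genotypes overlapped WT. Adra2c (chr5:35278319-35281763) was at 14.8, 9.56 and 14.9 CPM in WT, below all libraries of 5xFAD (15.3, 20.2 and 23.9 CPM) and of p75NTRko (17.0, 19.7 and 15.7 CPM). WT replicate 3 and 5xFAD replicate 1 each held 90 counts, so their order depends on how the counts are scaled. In 5xFAD/p75NTRko it was at 17.6, 20.6 and 13.9 CPM, which overlapped WT. Adra2b (chr2:127363208-127367221) had 7 to 13 counts per library for WT, 0 to 3 for 5xFAD, 2 to 4 for p75NTRko and 0 to 17 for the cross. With so few counts it did not pass the filter, and no fold change is given.

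Adrb1 (chr19:56722199-56733113), the beta-1 receptor, was at 60.7, 49.6 and 42.4 CPM in WT and at 38.8, 42.7 and 37.2 CPM in 5xFAD. The p75NTRko libraries lay close together at 34.1, 32.8 and 34.9 CPM, below every library of the other genotypes. In 5xFAD/p75NTRko they were at 41.4, 45.5 and 68.4 CPM, the last being the highest of all 12.

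In 5xFAD against WT, the comparison that chose it, Adra1b differed by -1.85 on the log2 scale (SE 0.297, 95% interval -2.49 to -1.22), or 3.61-fold lower. Of all 13065 genes tested, 0.0536% passed an adjusted p of 0.05 in edgeR's quasi-likelihood test, and Adra1b was among them, from which nothing is read because this contrast chose it. None of the other 4 members tested passed. Adra2c was 0.59 higher on the log2 scale (SE 0.214, interval 0.13 to 1.05, edgeR adjusted p = 0.280). Its libraries lay above those of WT, as did those of 10.5% of all genes, but for Adra2c this depends on how the counts are scaled. Adrb1 differed by -0.36 (SE 0.174, adjusted p = 0.367), Adra2a by -0.39 (SE 0.281, adjusted p = 0.533) and Adra1d by 0.19 (SE 0.182, adjusted p = 0.648), each overlapping WT. Counting Adra1b, 2 of the 5 members had libraries that did not overlap between these genotypes, as had 19.6% of all genes.

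In p75NTRko against WT, all 5 members tested had libraries that did not overlap between the genotypes, as had 16.4% of all genes. Adra1b is one of the 5 and was chosen against these same WT libraries. Its place in this count, and in that of unadjusted p below, is therefore a description. Adra1b, Adra2a and Adrb1 were on the lower side, and Adra1d and Adra2c on the higher side. None passed the adjusted threshold in edgeR, nor did any gene (0%), while 11.5% of genes (1501) and 4 of the 5 members, Adra1b among them, had an unadjusted p below 0.05 and DESeq2 called 56 genes. Adra1b differed by -1.60 on the log2 scale (SE 0.292, interval -2.22 to -0.97), a value that shares the WT libraries with the comparison that chose it. Adrb1 differed by -0.59 (SE 0.175, edgeR adjusted p = 0.304), Adra2a by -0.75 (SE 0.287, adjusted p = 0.372), Adra1d by 0.43 (SE 0.180, adjusted p = 0.388) and Adra2c by 0.41 (SE 0.215, adjusted p = 0.471).

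The comparison of 5xFAD/p75NTRko with p75NTRko shares no library with the one that chose Adra1b. There Adra1b was 0.87 higher on the log2 scale (SE 0.297, interval 0.24 to 1.51), or 1.83-fold, with overlapping libraries, and did not pass the test (edgeR adjusted p = 0.711). Adrb1 was 0.61 higher (SE 0.176, interval 0.23 to 0.99, adjusted p = 0.607), all 3 cross libraries lying above all 3 p75NTRko libraries, as did 6.53% of genes. These were the 2 members with an unadjusted p below 0.05, which 6.59% of genes (861) had. No gene passed the adjusted threshold (0%) in edgeR, and DESeq2 called 22. Adra2a (0.31, adjusted p = 0.917), Adra1d (-0.19, adjusted p = 0.917) and Adra2c (-0.0064, adjusted p = 0.9996) overlapped between the genotypes.

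Against 5xFAD, the cross was 1.13 higher in Adra1b (SE 0.302, interval 0.48 to 1.77), and against WT it was 0.73 lower (SE 0.276, interval -1.32 to -0.14); both comparisons share libraries with the one that chose the gene, and in the former all cross libraries are of the high and all 5xFAD libraries of the low Xist class. No member passed in either, where 0.0383% and 0% of genes did (against WT, 1300 genes had an unadjusted p below 0.05 in edgeR and DESeq2 called 31), and no member's libraries were separate in either, against 11.2% and 11.5% of genes. Adrb1 differed by 0.39 from 5xFAD (SE 0.174, edgeR adjusted p = 0.953) and by 0.03 from WT (adjusted p = 0.972). The interaction, which is the difference between the transgene's effect in libraries labelled p75NTRko and in the others, was 2.73 for Adra1b (SE 0.420) and contains the comparison that chose it. For Adrb1 it was 0.97 (SE 0.247, interval 0.45 to 1.503, edgeR adjusted p = 0.331), and for Adra2a, Adra2c and Adra1d it was 0.70, -0.60 and -0.37 (adjusted p of 0.543 to 0.648). In the interaction 0.0383% of genes passed, Adra1b among them, from which nothing is read because of that choice. Adra1b did not pass in 17 of 22 alternatives, over which its value ranged from 1.503 to 3.004.

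**Figure D3:**
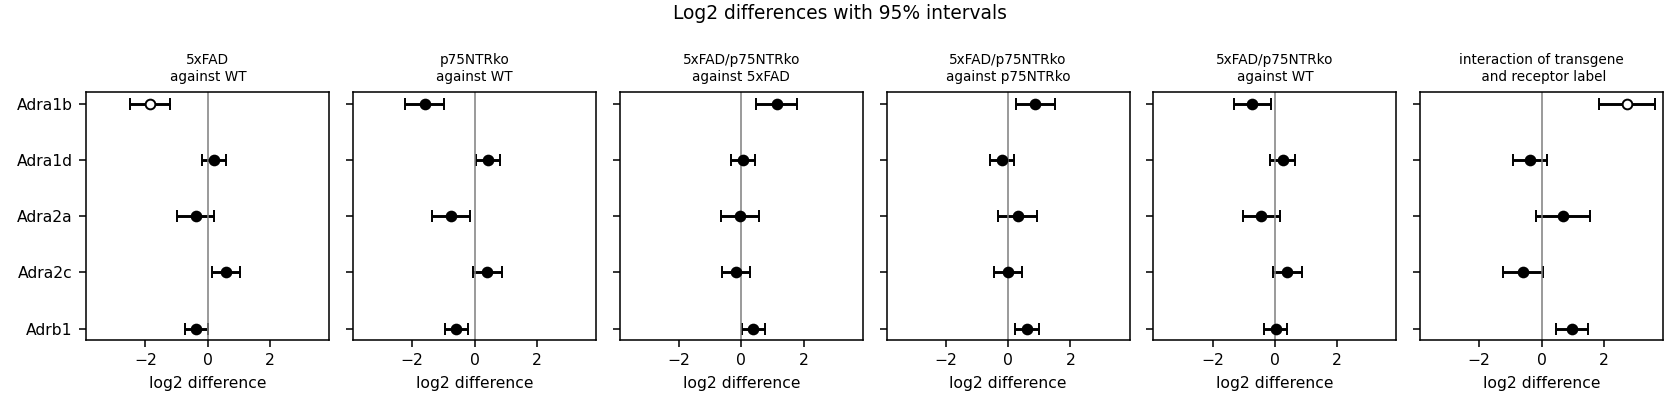
Log2 differences of the 5 members tested in the 6 comparisons, with 95% intervals from the edgeR fit. Open circles mark Adra1b in 5xFAD against WT, which chose it, and in the interaction, which contains that comparison. Adra1b lies at -1.85 in 5xFAD against WT and at 0.87 in 5xFAD/p75NTRko against p75NTRko, and the intervals of Adra1d and Adra2a include 0 in all comparisons but p75NTRko against WT.

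Markers of the hippocampal fields and of the tissue beside them also varied between the libraries. The 8 genes of a hippocampal fields list, all tested, summed to 572, 691 and 899 CPM for WT, 1005, 955 and 1186 for 5xFAD, 988, 1048 and 1130 for p75NTRko, and 867, 1046 and 707 for the cross. All 8 were higher in 5xFAD than in WT (median 0.42 on the log2 scale, against -0.0036 over all genes), and all 8 were lower in the cross than in p75NTRko (median -0.29), with 0 called in either. Neurod6, a transcription factor gene of pyramidal neurons, was the most abundant, at 331 ± 59.0 CPM in WT and 540 ± 84.9 CPM in 5xFAD (SD, n = 3, edgeR adjusted p = 0.150). Prox1, a marker of dentate granule cells, was at 4.17 ± 1.31 and 6.67 ± 1.57 CPM.

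Markers of the thalamus and habenula, which adjoin the hippocampus, ran the other way. The list has 20 genes, of which 17 were tested. Its summed level was 788 to 1081 CPM for WT, 511 to 619 for 5xFAD and 480 to 502 for p75NTRko. Replicates 1, 2 and 3 of the cross were at 1277, 426 and 620 CPM, so that replicate 2 lay below every p75NTRko library. In 5xFAD against WT 16 of 17 were lower (median -0.81), and in the cross against p75NTRko 16 of 17 were higher (median 0.67), again with 0 called. Among them, Rora was at 184 ± 6.57 CPM in WT and 109 ± 9.29 CPM in 5xFAD (edgeR adjusted p = 0.213), and Prkcd, the most abundant, at 232 ± 82.6 and 102 ± 14.3 CPM (adjusted p = 0.302). Gbx2, a defining gene of the thalamus, was near the limit of measurement and not tested, with 1 to 13 counts per library in WT, 0 in all 5xFAD libraries, 0 to 3 in p75NTRko and 0 to 7 in the cross. The 8 neocortex markers summed to 299.8 to 384 CPM over all libraries, with 4 higher and 4 lower in 5xFAD than in WT (median -0.0031) and 0 called. Rspo1 differed by -1.96, Lamp5 by -0.93 and Hs3st4 by 0.30 (edgeR adjusted p of 0.330 to 0.388). Hs3st4 was the most abundant of them (130 ± 18.9 CPM in WT), so the sum can hide changes in the others. Within WT, Lamp5 ran from 18.9 to 71.5 CPM and Etv1 from 62.4 to 70.3 CPM. Choroid plexus markers were lower in all 12 genes in 5xFAD than in WT (median -1.39) and lower in all 12 in the cross than in p75NTRko (median -1.09), with 0 called. WT sums ran from 2405 to 5930 CPM, those of 5xFAD from 319 to 1928 CPM and those of p75NTRko from 4426 to 7244 CPM. The cross was divided, replicate 1 at 7191 CPM lying within the p75NTRko range and replicates 2 and 3 at 174 and 358 CPM. The 7 GABAergic interneuron markers were all lower in 5xFAD than in WT (median -0.37) and all higher in the cross than in p75NTRko (median 0.15), and the 6 astrocyte markers were divided 3 to 3 in 5xFAD against WT, with 0 called in either list.

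Over the 12 libraries, log2 CPM of Adra1b and the mean log2 CPM of the hippocampal fields list had a Pearson r of -0.88 (Spearman rho -0.87), -0.81 around the genotype means and -0.83 without the 2 libraries farthest from the list's median. For the thalamus and habenula list r was 0.71 (rho 0.65), 0.41 around the genotype means and 0.78 without its 2 farthest libraries. For the neocortex list these were 0.68 (rho 0.68), 0.83 and 0.45. Some lists that are not of regions came as close, with r of 0.77 for GABAergic interneuron markers (0.28 around the genotype means). The Gi and Gq signalling lists described below had -0.75 and -0.71 (-0.82 and -0.74 around the means). Astrocyte and choroid plexus lists had -0.28 and 0.12. These are descriptions of libraries that share genotype and preparation. With the hippocampal fields score as a term in the fit, chosen after seeing the data, Adra1b differed by -1.16 in 5xFAD against WT, by -0.73 in p75NTRko against WT and by 0.35 in the cross against p75NTRko. Leaving out WT replicates 1 and 2 and 5xFAD/p75NTRko replicate 3, also chosen after seeing the data, left WT with replicate 3 alone. These 3 libraries were the lowest in that list and held the most Adra1b, so smaller differences from WT follow from the choice. The same 3 Adra1b differences were then -1.18, -0.93 and 0.65. Adrb1 in 5xFAD against WT was 0.057 with the score as a term and -0.097 without the 3 libraries. In p75NTRko against WT, the score as a term gave 0.058 for Adra1d, -0.12 for Adra2a, 0.22 for Adra2c and -0.062 for Adrb1. With the thalamus score as a term the 3 Adra1b values were -1.62, -1.26 and 0.67, and with Xist class as a term -1.49, -1.37 and 0.64. Only p75NTRko held both Xist classes, so the Xist term was estimated from 1 library against 2. In 5xFAD against WT its SE for Adra1b was 0.565, against 0.297 without the term, and it does not separate sex class from genotype there. Within p75NTRko, the library of the high Xist class was the one at 22.0 CPM of Adra1b. What part tissue makeup and sex class have in the receptor differences was not tested.

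**Figure D4:**
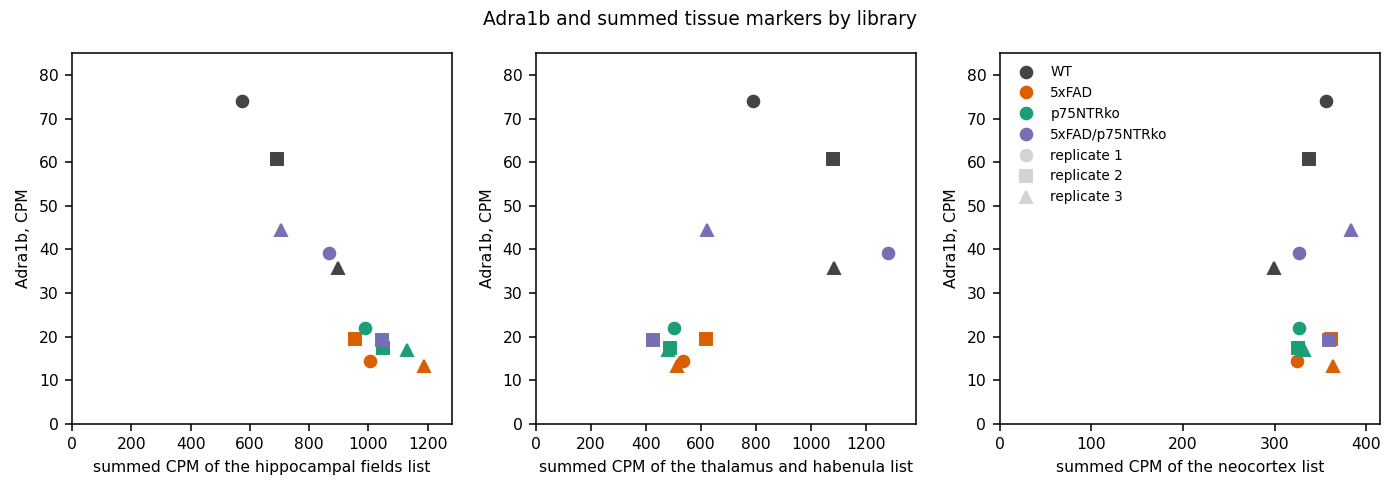
Adra1b (CPM) against the summed CPM of the hippocampal fields, thalamus and habenula, and neocortex lists in each of the 12 libraries. Colours are genotypes and symbols replicates. The correlations in the text use log2 CPM of Adra1b and the mean log2 CPM of each list, not these sums. The 3 libraries with the least hippocampal field signal (572 to 707 CPM) are also the 3 with the most Adra1b (44.4 to 74.0 CPM), and the neocortex sum stays between 299.8 and 384 CPM. The mean log2 CPM of the neocortex list was 4.86 in 5xFAD/p75NTRko replicate 3, 4.75 in WT replicate 1 and 4.10 to 4.44 in the others.

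The other well-counted receptors could be set beside Adra1b in the same way. Adrb1 had a Pearson r of 0.75 with Adra1b (rho 0.69) and Adra2a 0.68 (rho 0.64), whereas Adra1d had -0.69 (rho -0.60) and Adra2c -0.70 (rho -0.67). Around the genotype means these were 0.64, 0.73, -0.80 and -0.41, and without the 2 libraries farthest from each gene's median they were 0.64, 0.77, -0.57 and -0.51.

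Of the 13060 other genes compared, the 8 most like Adra1b by Pearson r over the 12 libraries were Pdp1, 1700021K19Rik, Opn3, Lrtm2, Plekhb2, Polr2m, Ptgfrn and Pcp4, with r of 0.92 to 0.97. In all, 13 genes had r above 0.9 and 6 had r below -0.9. Pdp1, the catalytic subunit of pyruvate dehydrogenase phosphatase, had the highest r (0.97, rho 0.90, and 0.92 around the genotype means). Its levels were 267 ± 44.4 CPM for WT, 147 ± 11.1 for 5xFAD, 148 ± 14.0 for p75NTRko and 205 ± 64.4 for the cross (SD, n = 3). Opn3 encodes an opsin, and Pcp4 a small calmodulin-binding protein of neurons. None of the 8 was in a list used here.

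**Figure D5:**
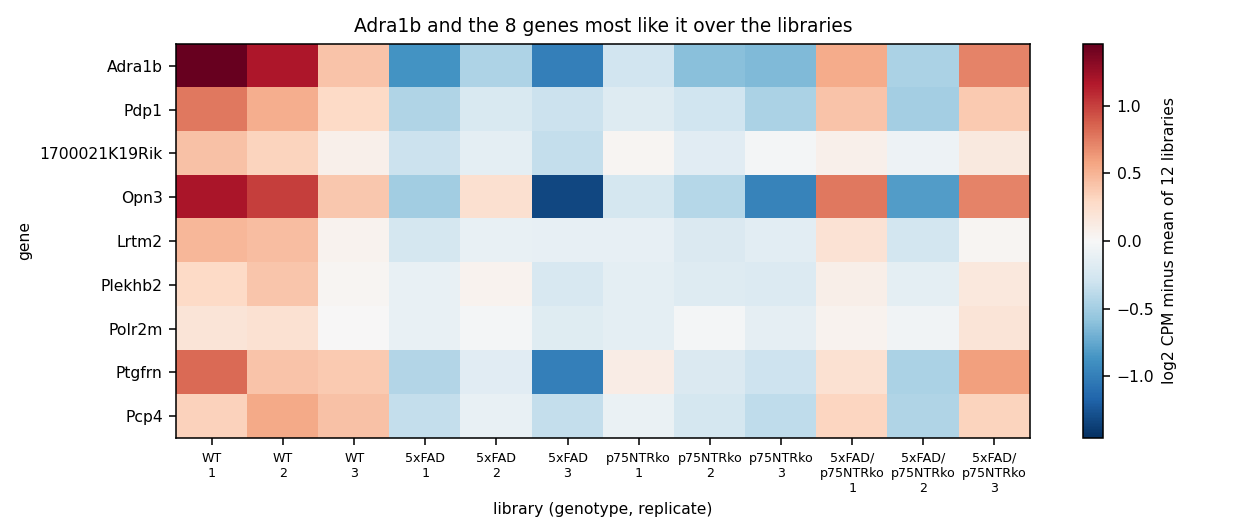
Log2 CPM minus the gene's mean over the 12 libraries for Adra1b and the 8 genes with the highest Pearson r to it; columns are libraries by genotype and replicate. The genes were chosen for this likeness; WT replicates 1 and 2 are high and 5xFAD/p75NTRko replicate 2 is on the low side with 5xFAD and p75NTRko.

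Genes that make the ligand were scarcely seen. Of 6 genes of noradrenaline and adrenaline synthesis and transport, Th, Dbh, Pnmt and Slc6a2, which encode 3 synthesis enzymes and the noradrenaline transporter, had 0 to 4 counts per library and were not tested. Ddc, whose enzyme also serves dopamine and serotonin synthesis, was at 29.2 ± 6.13 CPM in WT and 23.3 ± 7.56 CPM in 5xFAD (SD, n = 3, edgeR adjusted p = 0.504). Slc18a2, the vesicular monoamine transporter, was at 1.71 ± 1.45 and 1.58 ± 0.700 CPM. Of the catecholamine breakdown enzymes, the monoamine oxidase gene Maob differed by 0.16 on the log2 scale in 5xFAD against WT and Maoa by 0.07 (edgeR adjusted p of 0.631 and 0.773). No gene of either list passed in any of the 6 comparisons.

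Downstream of the receptors, no gene of the 4 signalling lists passed the test in 5xFAD against WT. In the Gq arm used by alpha-1 receptors, 9 of 10 genes were tested and all 9 had positive differences (median 0.22). Gnaq, the Gq alpha subunit, was at 357 ± 69.7 CPM in WT and 496 ± 33.8 CPM in 5xFAD (log2 difference 0.47, edgeR adjusted p = 0.224). Among its protein kinase C genes Prkca differed by 0.29 and the most abundant, Prkcb, by 0.09 (adjusted p of 0.373 and 0.750). In the cross against p75NTRko the same arm had 6 positive and 3 negative differences (median 0.03).

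The Gi arm, used by alpha-2 receptors, had 7 positive and 2 negative differences of 9 (median 0.15). Gng2, a G protein gamma subunit, differed by 0.20, Kcnj6, a G protein-gated potassium channel, by 0.63 and Gnai3 by 0.38, and Gnao1, the most abundant, by 0.04 (edgeR adjusted p of 0.425 to 0.860). In the Gs arm of beta receptors 11 of 12 genes were tested, 5 positive and 6 negative (median -0.07). Prkar2b, a regulatory subunit of protein kinase A, differed by -0.29, the adenylyl cyclases Adcy3 and Adcy9 by 0.23 and 0.17, and Prkar1a, the most abundant, by -0.08 (adjusted p of 0.341 to 0.625).

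All 8 genes of the desensitization list had negative differences in 5xFAD against WT (median -0.19), and 6 of 8 had positive ones in the cross against p75NTRko (median 0.14), with 0 called. The list summed to 1382, 1288 and 949.98 CPM in WT, 938 to 1023 in 5xFAD, 868 to 945 in p75NTRko and 946, 985 and 1343 in the cross. WT replicates 1 and 2 and cross replicate 3, the libraries lowest in hippocampal field markers, stood above the rest, and WT replicate 3 lay within the 5xFAD range. Adrbk1, the receptor kinase also called Grk2, was at 163 ± 32.6 CPM in WT and 128 ± 9.49 CPM in 5xFAD (log2 difference -0.35, edgeR adjusted p = 0.304). Rgs4, which speeds the shutdown of Gq and Gi signals, was at 367 ± 126 and 243 ± 28.9 CPM (log2 difference -0.59, adjusted p = 0.325). Arrb1, a beta-arrestin, was at 282 ± 39.7 and 227 ± 18.4 CPM (log2 difference -0.32, adjusted p = 0.341). Over the 12 libraries the list's mean log2 CPM had a Pearson r of 0.82 with Adra1b (rho 0.70; 0.68 around the genotype means), and Rgs4 in the cross was at 232 to 461 CPM.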

How the data were processed

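The values are raw read counts by gene symbol, as deposited by the authors; the file records no normalization. The submitters' processing notes name FastQC, HISAT2, SAMtools, HTSeq and edgeR with the mouse build mm10, without versions; the annotation and strand setting are not given in the sources used here. Per the labels' protocols, the RNA had integrity numbers above 7, and the 3′ libraries were amplified for 14 cycles.

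The 5 summary lines were left out: 32.2% to 38.5% of reads per library were assigned to genes, 28.9% to 33.5% fell outside features, 18.6% to 25.4% did not align, 9.57% to 12.1% aligned to several places and 0.226% to 0.291% were ambiguous. Columns of other samples numbered 0. Replicates differed by more than sampling noise (lowest chi-square per degree of freedom 2.97).

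edgeR 4.0.16 (R 4.3.3) fitted the 4 genotype means over all 12 libraries with filterByExpr, TMM scaling and the quasi-likelihood test, and p-values were adjusted by Benjamini-Hochberg over 13065 genes in each of 6 comparisons. The filter passed 5 of the 7 members. CPM divide counts by the library's gene counts times its TMM factor, and log2 CPM add a prior count of 2. The common dispersion corresponds to a biological variation of 13.8%. The fit was also run on simulated data with independent genes and no tissue or sex differences between libraries, which does not check it against those differences. With no animals named, p-values measure the spread between these libraries. Alternatives were DESeq2 1.42.0, other scaling and filters, a replicate block, Xist class (100 CPM), sex chromosomes left out, tissue scores and libraries left out.

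The named genes are the 7 members, for each list the genes called or else the 3 with the smallest p in 5xFAD against WT and the most abundant, and the 8 genes most like Adra1b. Some genes that this rule names are not reported here. The members and lists were chosen with earlier results of these data known. Coordinates are from GENCODE M21, promoter sequences from RefSeq GRCm38.p6.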

Additional observations from a re-analysis of the deposited data

How the results depend on the processing

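Each comparison was refitted under 17 to 22 alternatives. The 1 member past the threshold in 5xFAD against WT and in the interaction was Adra1b. The former comparison chose it and the latter contains that comparison, so nothing is read from whether Adra1b passed in them. The count of members past the threshold in 5xFAD against WT, 1, was 0 with the thalamus and habenula score or the hippocampal fields score as a term, and after removing X and Y genes. With Xist class as a term, which rests on the p75NTRko libraries alone, it was also 0. Leaving out each library in turn gave 0 to 1, with 0 without WT replicate 1 or 2 or any 5xFAD replicate. Adra1b itself was -1.85 without X and Y genes, against -1.85 as reported, and -2.10 to -1.62 with a library left out; over all alternatives it was -2.10 to -1.16. In the interaction, 1 was 0 under those alternatives and with a mean of at least 50 counts, and 0 to 1 with a library left out, 1 being without WT replicate 3 or 5xFAD/p75NTRko replicate 2. In p75NTRko against WT, 0 was 1, Adra1b, under DESeq2, with no filter and with only the compared genotypes fitted, and 0 to 1 with a library left out, the 1 being without WT replicate 3. In the other 3 comparisons it was 0 under all alternatives. Counts of all genes ranged from 0 to 97 in 5xFAD against WT, 0 to 56 in p75NTRko against WT, 0 to 22 in the cross against 5xFAD, 0 to 49 against p75NTRko, 0 to 31 against WT and 0 to 25 in the interaction; the cause was not tested.

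Signs changed in these differences. With the hippocampal fields score, Adra1d, Adra2a and Adrb1 were -0.11, 0.10 and 0.057 in 5xFAD against WT, Adra1d, Adra2a and Adra2c were 0.031, -0.11 and 0.10 in the cross against p75NTRko, and Adra1d and Adra2a were 0.14 and -0.21 in the interaction. With Xist class, Adra1d was -0.030 in 5xFAD against WT and Adra2c 0.026 in the cross against p75NTRko; with the thalamus score, Adra2c was 0.037 there and Adrb1 -0.080 in the cross against WT. Without the 3 libraries Adra2a was 0.032 in 5xFAD against WT, -0.017 in the cross against p75NTRko and -0.049 in the interaction, and Adra2c was 0.13 in the cross against p75NTRko. With a library left out, the cross against 5xFAD ranged from -0.18 to 0.22 for Adra1d and -0.38 to 0.28 for Adra2a, the cross against p75NTRko from -0.021 to 0.49 for Adra2a and -0.14 to 0.13 for Adra2c, and the cross against WT from -0.23 to 0.17 for Adrb1.

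Deviations of same-numbered libraries from their genotype means correlated at -0.42 to 0.14, above 0.1 in 2 of 18 pairs. Pairs of different numbers were not compared, so whether the replicate numbers pair the libraries was not tested. With the replicate block the members past the threshold were 0 in 5xFAD against WT and 0 in the interaction, where Adra1b was -1.83 and 2.70, close to the -1.85 and 2.73 without it, and Adra2a was 0.012 in the cross against 5xFAD.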
